A study of Mus musculus with 6 samples.

Results

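The death receptor pathway genes examined here were Fas and its ligand Fasl, the adaptor Fadd, the inhibitor Cflar, the caspases Casp8 and Casp6, and the kinases Ripk1 and Ripk3. They were taken by name, as the rows of the deposited gene table that carry these 8 symbols out of 53278 genes. The RNA came from type-2 innate lymphoid cells (ILC2s), lymphocytes without antigen receptors that secrete type 2 cytokines, sorted from visceral adipose tissue of C57BL/6 mice aged 8 weeks as lineage-negative CD45+ ST2+ CD117+ cells. All mice had received 3 intraperitoneal injections of 1 µg IL-33, and all cells were cultured with IL-2 and IL-7, each at 10 ng/mL. The 3 isotype control libraries came from cells that the sample titles and protocols give as cultured with an isotype control antibody, although the sample descriptions and the columns of the table name them PBS, and the 3 DTA-1 libraries from cells cultured with DTA-1 (5 µg/mL), an agonistic antibody to the costimulatory receptor GITR. The culture time is 48 h in the sample labels and in the methods, and the results text of the study gives a shorter one. The sources used here do not say whether the libraries came from separate mice, so the p-values measure the spread between these libraries, which may be technical.

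Fas is a cell surface receptor of the TNF receptor superfamily. When Fas ligand binds it, its death domain recruits FADD, and FADD recruits procaspase-8, which then activates itself. The long form of c-FLIP, the product of Cflar, resembles caspase-8 without its protease activity and joins the same complex. Caspase-8 cleaves executioner caspases and the BH3 protein BID, and together with c-FLIP it also cleaves RIPK1 and RIPK3. RIPK1 relays signals of TNF receptors, and RIPK3 phosphorylates MLKL, the protein that opens the membrane in necroptosis. GITR belongs to the same receptor superfamily but has no death domain. The comparison of DTA-1 with isotype control asked here whether the transcripts of this pathway differed when GITR was engaged.

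The sequences just upstream of the most abundant of these transcripts, of the receptor and of the ligand that had no reads are shown first. Each is the 250 bases before the gene's RefSeq start in GRCm38.p6, written 5′ to 3′ on the strand of the gene. The Casp8 window lies at chr1:58802252-58802501 on the plus strand, inside the span of the gene in the deposited table, which starts at 58795374. The Fas window lies at chr19:34290409-34290658 on the plus strand and the Fasl window at chr1:161788496-161788745 on the minus strand. Capitals mark matches to the motifs searched.
Casp8: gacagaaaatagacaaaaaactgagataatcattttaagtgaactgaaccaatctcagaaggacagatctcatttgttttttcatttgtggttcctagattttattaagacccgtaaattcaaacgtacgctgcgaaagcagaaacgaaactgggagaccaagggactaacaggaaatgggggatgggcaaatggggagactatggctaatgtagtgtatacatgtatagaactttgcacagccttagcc
Fas: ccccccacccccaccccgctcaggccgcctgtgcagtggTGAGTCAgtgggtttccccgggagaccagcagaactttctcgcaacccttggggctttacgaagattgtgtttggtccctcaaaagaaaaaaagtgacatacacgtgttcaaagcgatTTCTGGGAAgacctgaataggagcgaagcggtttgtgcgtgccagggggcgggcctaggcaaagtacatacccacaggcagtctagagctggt
Fasl: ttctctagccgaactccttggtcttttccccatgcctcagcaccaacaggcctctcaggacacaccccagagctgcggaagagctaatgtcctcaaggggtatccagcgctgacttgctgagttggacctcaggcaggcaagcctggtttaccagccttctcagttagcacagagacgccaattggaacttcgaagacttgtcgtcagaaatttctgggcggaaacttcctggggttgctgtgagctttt

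RefSeq gave 9 such windows for the 8 genes, with 2 for Ripk1. The windows were searched on both strands for letters of the κB site (GGANTTTCC), the AP-1 site (TGANTCA), the STAT site GAS (TTCNNNGAA) and an interferon regulatory factor site (GAAANNGAA). The capitals in the Fas window are 1 match to the AP-1 letters, TGAGTCA, and 1 match to the GAS letters, TTCTGGGAA, which do not overlap. The AP-1 letters were in 1 of the 9 windows and in 6.75% of all 32851 windows of the same length, and the GAS letters were in 2 of the 9 (Fas and 1 of the windows of Ripk1) and in 7.02% of all. The κB letters and the interferon regulatory factor letters were in 0 of the 9 windows, against 1.07% and 7.13% of all. The absence of a match says only that these letters are not in these windows. The share of G and C was 39.6% in the Casp8 window, 56.4% in the Fas window and 53.6% in the Fasl window, with a median of 52.4% over all windows. The Casp8 window held 5 CpG dinucleotides, the Fas window 11 and the Fasl window 7, against a median of 6.

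The values below are normalized counts, that is counts scaled by the TMM method to a library size of 1000000 (CPM). Total counts were 34557215 to 35131329 in isotype control and 30569351 to 32492849 in DTA-1. DTA-1 replicate 1 stood apart from its group. By the chi-square of counts over genes divided by its degrees of freedom, its distance was 10.1 to 11.9 to each isotype control library, but 29.0 and 30.5 to the other DTA-1 libraries, whose own distance was 11.9. The labels put it in the DTA-1 group, and whether that label is right could not be settled from the sources used here. The DTA-1 means and fold changes from all 6 libraries include it. The fold changes of the 7 tested genes are given without it too. So are those printed for further genes and the medians of the lists by role. The 14 ILC2 markers were all above the count filter and summed to 13928 to 14798 CPM in isotype control and 14972 to 19495 CPM in DTA-1, with the cytokine gene Il5 as the highest at a mean of 6699 CPM. Without the secreted factors Il5, Il13 and Areg, a split made after the values were seen, the other 11, among them Gata3, Il1rl1 and Il7r, summed to 8600 to 9123 CPM and to 9083 to 9358 CPM, and the groups overlapped. The marker lists of 9 other cell types (T, B and NK cells, macrophages, neutrophils, mast cells and basophils, fibroblasts, endothelial cells and adipocytes) each summed to at most 53.6 CPM in any library, the highest being the T cell list, in which Cd3g alone had a mean of 44.1 CPM. Tnfrsf18, which encodes GITR, was at 666 to 747 CPM in isotype control and 657 to 756 CPM in DTA-1. In such bulk samples fewer cells with a transcript and less RNA per cell cannot be told apart.

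For no transcript of the pathway core did the difference between DTA-1 and isotype control pass the test. Of the 8 genes, 7 passed the filter on low counts and were tested, and Fasl had no reads. A gene was called when its edgeR adjusted p was under 0.05 and its change at least 1.5-fold. By this rule 0 of the 7 genes were called, with 0% of all 14361 genes tested. By edgeR, 0 of the 7 had an unadjusted p under 0.05, against 7.22% of all genes, and DESeq2's Wald test and limma-trend also called 0 of them, with 0 at an unadjusted p under 0.05 in each. The groups overlapped in all 7 genes and did not overlap in 11.3% of all genes. At shares as low as 7.22% and 11.3%, a count of 0 of 7 does not set these genes apart. The log2 fold changes ran from −0.05 for Ripk3 to 0.13 for Casp8, with 6 genes higher and 1 lower with DTA-1, and their median was 0.10 against −0.01 over all genes.

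The 95% interval of the difference lay within a change of 1.5-fold in either direction in all 7 genes. The widest bounds were those of Fadd, at 0.842-fold and 1.39-fold. Such an interval was found in 58.9% of all genes tested, and in 92.3% of those with a mean of at least 10 CPM, as these 7 genes had. With any 1 library left out, the interval of every gene stayed within 1.5-fold except that of Fadd without DTA-1 replicate 2, whose upper log2 bound was 0.60 against a limit of 0.58.

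**Figure D1:**
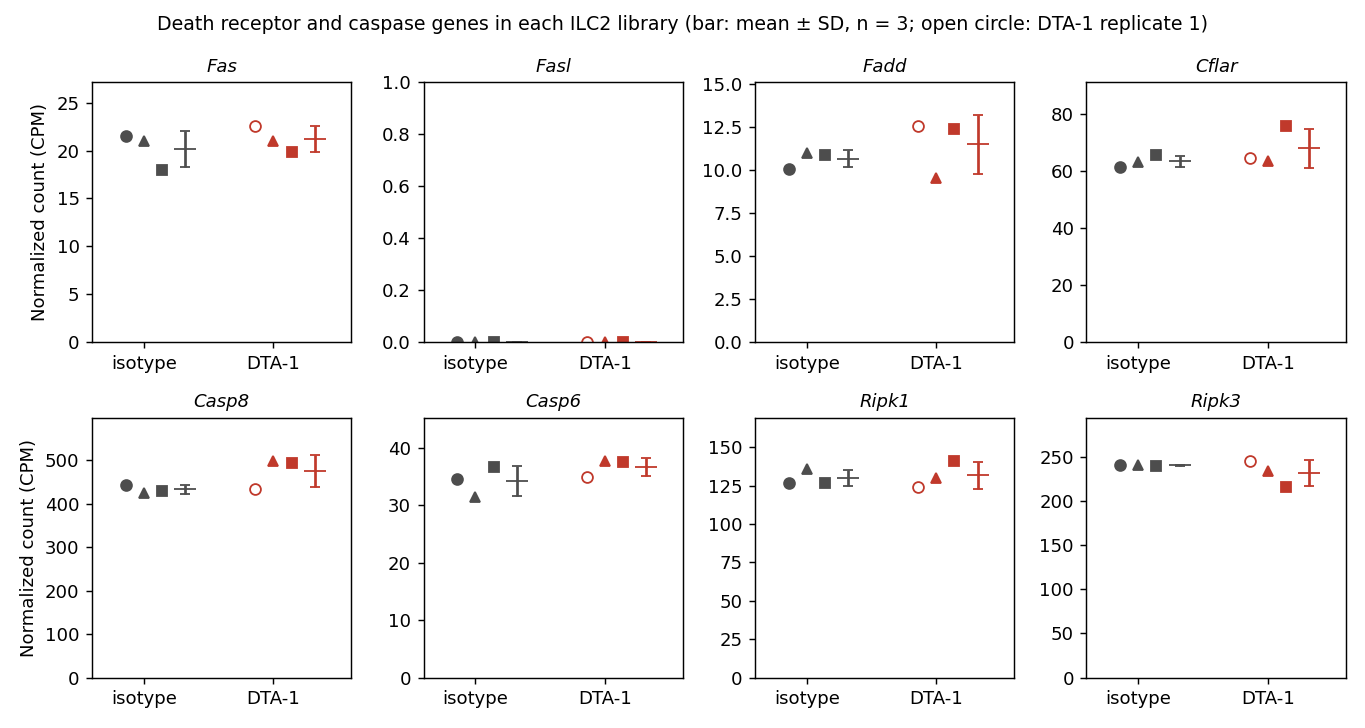
Normalized counts (CPM, linear axes from 0) of the 8 genes in the 3 isotype control libraries (grey) and the 3 DTA-1 libraries (red). Circles, triangles and squares are replicates 1, 2 and 3, the open circle is DTA-1 replicate 1, and bars are the mean ± SD (n = 3). Casp8 was at 498 and 493 CPM in DTA-1 replicates 2 and 3 and at 425 to 443 CPM in the other 4 libraries, and Fasl was at 0 in all 6.

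Fas was detected in every library and its ligand in none. Fas (chromosome 19, 34290659 to 34327770, in mm10, the build of all gene positions here) was at 21.5, 21.0 and 18.0 CPM in isotype control and at 22.6, 21.0 and 19.9 CPM in DTA-1. The means were 20.2 ± 1.92 and 21.2 ± 1.35 CPM (SD, n = 3 each), and the ranges of the groups overlapped. The log2 fold change of Fas was 0.07 (standard error 0.12, 95% interval −0.20 to 0.34, edgeR adjusted p = 0.939) and became 0.02 when DTA-1 replicate 1 was omitted (edgeR adjusted p = 0.974). Fasl (chromosome 1, 161780689 to 161788495), whose product is found chiefly on activated T cells and NK cells, had 0 counts in each of the 6 libraries. The upper limit set by a count of 0 is 3 counts, equal to 0.0848 to 0.0970 CPM by library, and it covers counting error only. No fold change was computed for Fasl.

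Fadd (chromosome 7, 144577318 to 144582463), the adaptor, had the lowest level of the 7 genes and the widest interval. It was at 10.1, 11.0 and 10.9 CPM in isotype control and at 12.6, 9.55 and 12.4 CPM in DTA-1, so that DTA-1 replicate 2 lay below all isotype control libraries and the other DTA-1 libraries lay above them. The log2 fold change of Fadd was 0.11 (standard error 0.16, 95% interval −0.25 to 0.47, edgeR adjusted p = 0.919) and became 0.04 on omission of DTA-1 replicate 1 (edgeR adjusted p = 0.951). The antisense gene Faddos shares 4195 bases with Fadd on the opposite strand and had 3.67 to 26.3 counts. The sources used here do not say whether strand was used in counting, so reads of this pair, 3.22% of those of Fadd for Faddos, may be split between them.

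Cflar (chromosome 1, 58711508 to 58758884), the inhibitor, was at 61.4, 63.2 and 65.5 CPM in isotype control and at 64.5, 63.4 and 75.9 CPM in DTA-1. Only DTA-1 replicate 3 lay above the isotype control range. The log2 fold change of Cflar was 0.10 (standard error 0.09, 95% interval −0.10 to 0.30, edgeR adjusted p = 0.845), 0.14 when DTA-1 replicate 1 was omitted (edgeR adjusted p = 0.590) and 0.01 when DTA-1 replicate 3 was (edgeR adjusted p = 0.999). Cflar and Casp8 are neighbours on chromosome 1, on the same strand and 36489 bases apart, with 1 other annotated gene, Gm3841, between them.

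Casp8 (chromosome 1, 58795374 to 58847503), the initiator caspase, came nearest to a difference of the 7 genes. It was at 443, 425 and 430 CPM in isotype control and at 433, 498 and 493 CPM in DTA-1. DTA-1 replicates 2 and 3 lay above every isotype control library, and DTA-1 replicate 1 lay inside the isotype control range. The means were 433 ± 9.57 and 474 ± 36.2 CPM (SD, n = 3 each), and the log2 fold change was 0.13 (standard error 0.07, 95% interval −0.02 to 0.28, edgeR adjusted p = 0.725). With DTA-1 replicate 1 omitted, Casp8 differed by 0.19 on the log2 scale (standard error 0.05, 95% interval 0.08 to 0.31), with an unadjusted p of 0.00448 in that edgeR fit. Its edgeR adjusted p was then 0.124, the lowest of all alternatives, which reached 0.999, so the difference did not pass the test. In that comparison 1 of the 7 genes, Casp8, had an unadjusted p under 0.05, against 14.0% of all genes. The gene Gm37760 lies inside Casp8 on the same strand and had 57 to 200 counts, 0.788% of those of Casp8.

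Casp6 (chromosome 3, 129901425 to 129914103), an executioner caspase, was at 34.5, 31.4 and 36.7 CPM in isotype control and at 34.9, 37.7 and 37.5 CPM in DTA-1. As in Casp8, DTA-1 replicates 2 and 3 were the highest libraries, but by less than the spread within isotype control. The log2 fold change of Casp6 was 0.10 (standard error 0.10, 95% interval −0.12 to 0.32, edgeR adjusted p = 0.859) and came to 0.14 on omission of DTA-1 replicate 1 (edgeR adjusted p = 0.628).

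The kinases of the necroptosis arm were both well expressed. Ripk1 (chromosome 13, 34002363 to 34037147) was at 127, 136 and 127 CPM in isotype control and at 124, 130 and 141 CPM in DTA-1. Its log2 fold change was 0.02 (standard error 0.07, 95% interval −0.14 to 0.18, edgeR adjusted p = 0.969) and came to 0.06 when DTA-1 replicate 1 was omitted (edgeR adjusted p = 0.777). Ripk1 shares 432 bases with Serpinb6a on the opposite strand, which had 4917 to 6277 counts, and the pseudogene Gm17084 inside it had 58.2 to 88.7 counts. How reads in overlapping genes were assigned is not given in the sources used here.

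Ripk3 (chromosome 14, 55784995 to 55788865) was the 1 gene with a lower mean in DTA-1. It was at 241, 240 and 239 CPM in isotype control, a coefficient of variation of 0.583%, and at 245, 234 and 216 CPM in DTA-1. DTA-1 replicates 2 and 3 lay below every isotype control library and DTA-1 replicate 1 above every one of them. The log2 fold change of Ripk3 was −0.05 (standard error 0.06, 95% interval −0.19 to 0.09, edgeR adjusted p = 0.902). With DTA-1 replicate 1 omitted, Ripk3 stood at −0.09 (95% interval −0.23 to 0.04, edgeR adjusted p = 0.558). In Ripk3, Casp8 and Casp6, DTA-1 replicates 2 and 3 thus lay on the same side of the isotype control range, and DTA-1 replicate 1 did not. In Ripk3, however, replicate 2 (234 CPM) was nearer to replicate 1 (245 CPM) than to replicate 3 (216 CPM).

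Without that library 0 of the 7 genes were called by edgeR, with 1 at an unadjusted p under 0.05, while 0.744% of 14911 genes were called. The intervals of all 7 again lay within 1.5-fold, against 52.7% of all genes, with log2 bounds of −0.35 and 0.43 for Fadd. Among genes with a mean of at least 10 CPM, as these 7 had, that share was 92.3% with all 6 libraries. It was not computed without DTA-1 replicate 1. The isotype control libraries varied less than the DTA-1 libraries in 5 of the 7 genes and more in Fas and Casp6. The coefficient of variation ran from 0.583% for Ripk3 to 9.49% for Fas in isotype control and from 4.19% for Casp6 to 14.7% for Fadd in DTA-1.

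**Figure D2:**
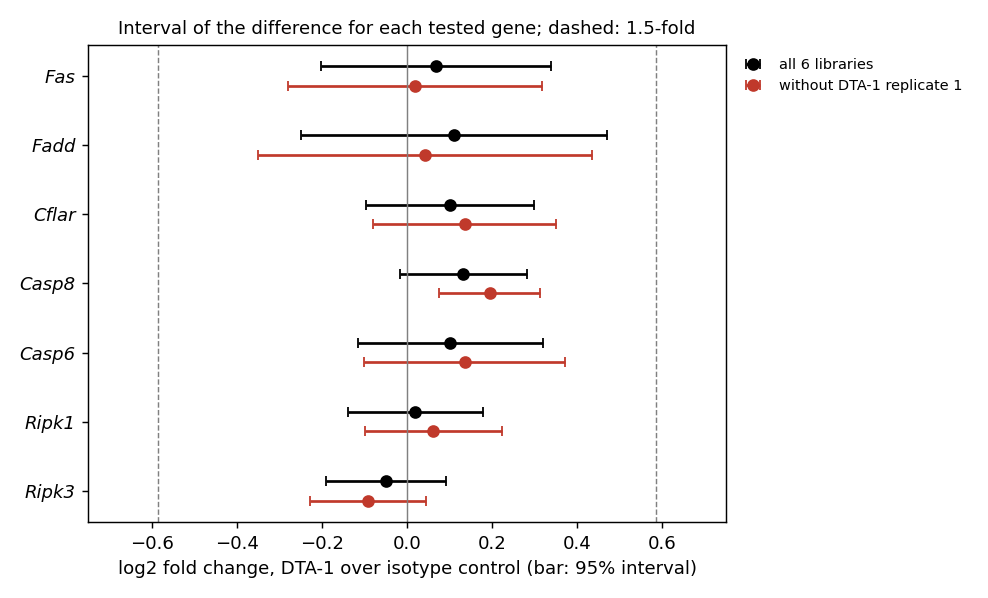
Log2 fold change of DTA-1 over isotype control (x axis) for each of the 7 tested genes, with its 95% interval, from all 6 libraries (black) and with DTA-1 replicate 1 omitted (red). The dashed lines mark 1.5-fold, a log2 value of 0.58, and every interval drawn lies between them. Only that of Casp8 without this library, 0.08 to 0.31, does not hold 0.

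Levels of different genes were compared as CPM per kilobase, by the total length of their annotated exons. Over the 6 libraries Casp8 had the highest level, at 157 CPM per kilobase, above 97.8% of the genes tested. Ripk3 followed at 103, Ripk1 at 15.7, Fas at 10.0, Casp6 at 6.35, Cflar at 5.18 and Fadd at 2.84 CPM per kilobase, the last above 41.1% of the genes tested. The highest and the lowest thus lay 55.3-fold apart. In this order each gene lay above the next in every library pair except Casp6 and Cflar, whose libraries overlapped (5.63 to 6.75 and 4.84 to 5.99 CPM per kilobase). By the length of the longest transcript instead, Cflar was the higher of the pair, at 9.99 against 9.06 CPM per kilobase. Cflar has 13 annotated transcripts, and gene counts do not show which of them were present.

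Casp8 also had the highest level per length of the 10 caspase genes listed. Casp1, an inflammatory caspase, was next at 28.3 CPM per kilobase, 5.54-fold lower. Mlkl, the target of RIPK3, was at 63.4 CPM per kilobase, between Ripk3 and Ripk1. Casp14 had 0 counts in all libraries, and Casp12 was below the count filter.

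**Figure D3:**
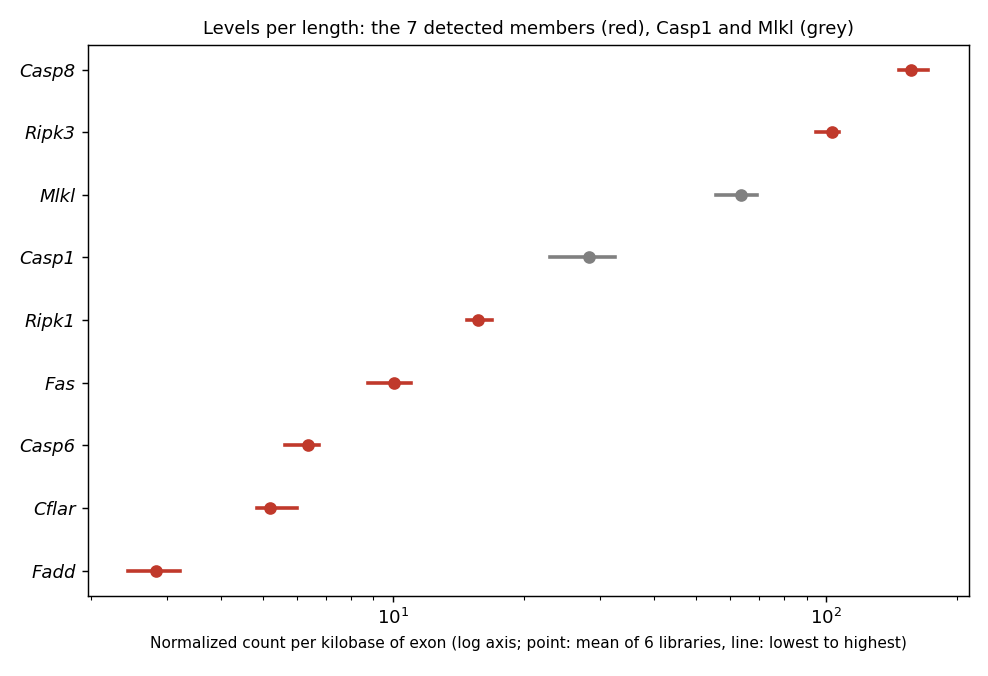
Level per length (CPM per kilobase of exon, log axis) of the 7 detected genes (red) and of Casp1 and Mlkl (grey). Points are the mean of the 6 libraries and lines run from the lowest to the highest library. Casp8 at 157 and Ripk3 at 103 stand above Mlkl at 63.4, and Fadd at 2.84 is the lowest.

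Ratios of counts per length within a library do not depend on how libraries are scaled, and 3 were computed after the values above were seen. That of Casp8 to its inhibitor Cflar was 31.6, 29.5 and 28.7 in isotype control, against 29.4, 34.4 and 28.4 in DTA-1 (two-sided exact permutation p = 0.9). That of Casp8 to its adaptor Fadd was 59.3, 52.2 and 53.4 in isotype control, against 46.4, 70.4 and 53.8 in DTA-1 (exact permutation p = 0.8). That of Ripk3 to Ripk1 was 6.94, 6.41 and 6.86 in isotype control, against 7.22, 6.56 and 5.57 in DTA-1 (exact permutation p = 0.7). With 3 libraries a group the smallest p this test allows is 0.1, so none of the ratios could pass a threshold of 0.05. After Benjamini-Hochberg adjustment over the 3 each was 0.9, and in all 3 the groups overlapped. The size of a ratio depends on the lengths used, here those of all annotated exons. By the longest transcript Casp8 was at 175 and Cflar at 9.99 CPM per kilobase, against 157 and 5.18 by all exons.

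The patterns over the 6 libraries were compared by the root mean square difference of log2 CPM after centring each gene on its own mean, among 8722 other genes with a mean of at least 10 CPM. The genes most like Casp8 were Ldha (0.0149), Pum3 (0.0185) and Hcls1 (0.0201). Those most like Cflar were Map3k1 (0.0229), Zdhhc12 (0.0229) and Ccar2 (0.0237), and those most like Fas were Ctbs (0.0225), Srrd (0.0284) and D230025D16Rik (0.0294). The genes themselves varied about their means by 0.0937 (Casp8), 0.0995 (Cflar) and 0.103 (Fas) on the same scale, and 212, 47 and 26 genes lay within 0.05 of them. These likenesses over 6 libraries that share scaling and depth are a description.

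The wider pathway was read from 59 further genes in 7 lists by role, of which 55 were tested. By edgeR 0 of the 55 were called, 28 were higher and 27 lower with DTA-1, and their median log2 fold change was 0.00. Of the 55, 6 (10.9%) had an unadjusted p under 0.05 by edgeR, 5 of them higher, and DESeq2 and limma called 0 as well, with 7 and 6 at an unadjusted p under 0.05. The groups did not overlap in 7 of the 55 (12.7%), and the interval lay within 1.5-fold in 44 of them (80.0%). These shares stand against 7.22%, 11.3% and 58.9% of all genes. The last was 92.3% among genes with a mean of at least 10 CPM, as most of the 55 had.

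Of the 6 tested genes listed as other death receptors, 2 were higher with DTA-1 and 4 lower. Their median log2 fold change was −0.08, or −0.04 with DTA-1 replicate 1 omitted. The list also held Tnfrsf22 and Tnfrsf23, which encode decoy receptors without a death domain, and both were among the 4 lower. These 2 stood at −0.11 and −0.17, or at −0.39 and −0.04 without that library. Tnfrsf25, which encodes the death receptor DR3, had the highest level per length of the 6, at 56.9 CPM per kilobase. It stood at −0.06 on the log2 scale (edgeR adjusted p = 0.859), or −0.04 without that library (edgeR adjusted p = 0.830). Tnfrsf1a, the main death domain receptor for TNF, was at 0.622 CPM per kilobase. It was at 1.55, 0.77 and 1.19 CPM in isotype control and at 1.10, 1.79 and 3.26 CPM in DTA-1 (log2 fold change 0.81, edgeR adjusted p = 0.738), and the log2 fold change without that library was 1.11 (edgeR adjusted p = 0.291). Of the other death ligands 2 of 3 tested were higher, with a median of 0.95, or 1.18 without it. Of the adaptors and regulators of the complex, such as Tradd and Faf1, 3 of 8 tested were higher, with a median of −0.05, or −0.03 without it.
Of the other caspases 3 of 6 tested were higher, with a median of 0.02 from all libraries that turned to −0.03 with DTA-1 replicate 1 omitted. Of the caspase substrates 4 of 9 were higher, with a median of −0.03, or −0.06 without it. Of the mitochondrial arm and inhibitors of apoptosis 7 of 10 were higher, with a median of 0.04, or 0.10 without it. Bax, a pore-forming BCL2 family gene, was at 422, 371 and 396 CPM in isotype control and at 390, 325 and 315 CPM in DTA-1 (log2 fold change −0.21, unadjusted p = 0.0346 and adjusted p = 0.657 by edgeR), and its log2 fold change without that library was −0.31 (edgeR adjusted p = 0.0555). Of the necroptosis and RIPK1 control genes 7 of 13 were higher, with a median of 0.00, or 0.04 without it. Mlkl was at 138, 147 and 128 CPM in isotype control and at 145, 159 and 159 CPM in DTA-1 (log2 fold change 0.16, unadjusted p = 0.0459 and adjusted p = 0.681 by edgeR), and its log2 fold change without that library was 0.21 (edgeR adjusted p = 0.234).

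Of the genes around the pathway core, 4 were, of all the fits with an adjusted p, called only when DTA-1 replicate 1 was left out. These were 4 of 55 (7.27%), all higher, against 0.744% of all genes, but the lists they came from were chosen with earlier results on these samples known, so the count is no independent support. Lta, which encodes lymphotoxin alpha, a ligand of TNF receptors, was at 53.7, 38.1 and 44.3 CPM in isotype control and at 41.0, 169 and 148 CPM in DTA-1. Tnf, its neighbour on chromosome 17, was at 9.89, 6.67 and 7.34 CPM in isotype control and at 10.2, 19.8 and 16.2 CPM in DTA-1. In both genes DTA-1 replicates 2 and 3 were high and DTA-1 replicate 1 was at or near the isotype control range.
Birc3 encodes cIAP2, a ubiquitin ligase that acts on RIPK1. It was at 80.7, 80.1 and 86.2 CPM in isotype control and at 82.1, 159 and 164 CPM in DTA-1. Tnfaip3 encodes A20, which edits ubiquitin chains on RIPK1, and was at 28.7, 28.5 and 32.0 CPM in isotype control and at 30.1, 49.9 and 47.3 CPM in DTA-1.
With all 6 libraries the log2 fold changes were 1.39 for Lta, 0.95 for Tnf, 0.71 for Birc3 and 0.51 for Tnfaip3, with edgeR adjusted p values of 0.692, 0.627, 0.627 and 0.627. With DTA-1 replicate 1 omitted they came to 1.80, 1.18, 0.97 and 0.71, with edgeR adjusted p values of 0.000115, 0.0187, 0.000115 and 0.00925. Each of these was the lowest of that gene's range over the alternatives, which reached 0.999. In the same comparison the 7 core genes were at log2 fold changes of −0.09 to 0.19. The 4 genes were named because they passed the 1.5-fold limit in that fit, so the contrast does not set the core genes apart.

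**Figure D4:**
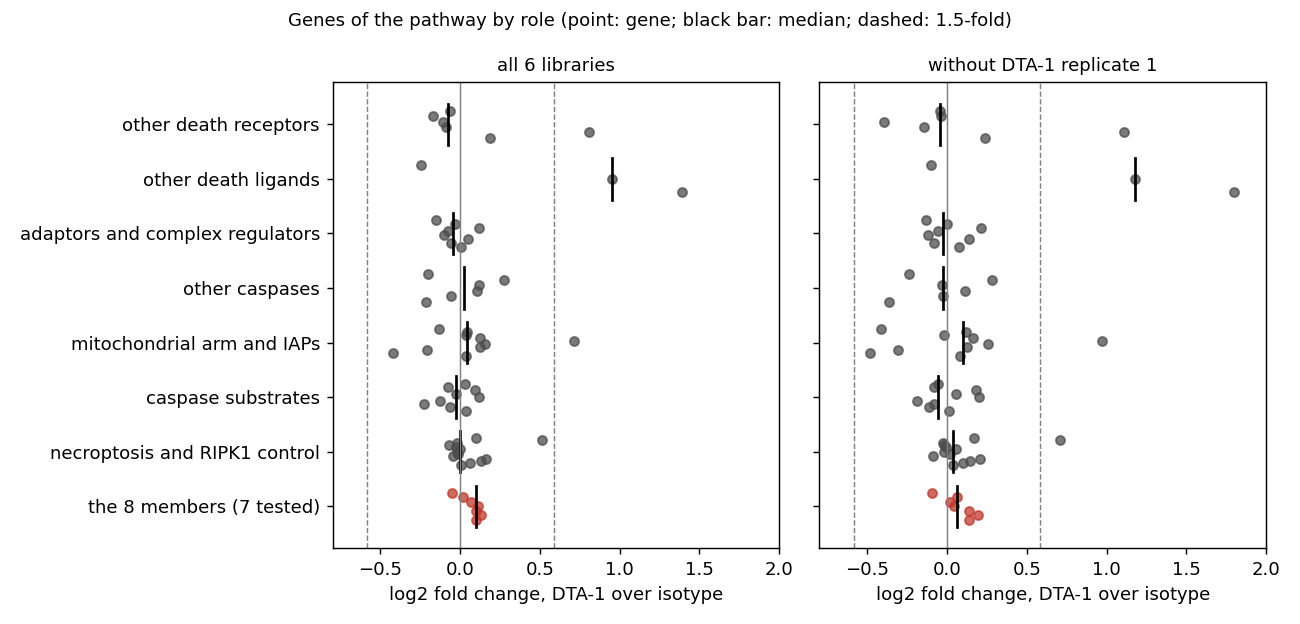
Log2 fold change of DTA-1 over isotype control (x axis) for each tested gene, by role in the pathway (rows), from all 6 libraries (left) and with DTA-1 replicate 1 omitted (right). Points are genes, black bars the median of a row, and dashed lines 1.5-fold. The 7 tested core genes (red) lie between −0.05 and 0.13 on the left and between −0.09 and 0.19 on the right. Lta, the highest point of each panel, is at 1.39 and 1.80.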

How the data were processed

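RNA from 3 isotype control and 3 DTA-1 cultures of sorted ILC2s was sequenced, each library from 10 ng of RNA. The authors aligned the reads and quantified genes with Partek, and deposited expected counts (estimated reads per gene, not normalized). The submitters' processing notes also name STAR 2.5.3a, bcl2fastq 2.17.1.14 and the mm10 build. The annotation release, the use of strand and the assignment of reads in overlapping genes are not given in the sources used here. Columns were matched to samples by the sample descriptions. Coordinates are those of the table (mm10), whose end is 1 base past the gene's last base in 48140 of 49618 symbols shared with GENCODE M21, and ends are printed less that base.

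Expected counts were rounded and filtered with filterByExpr, which kept 14361 genes, scaled by TMM, and tested with the quasi-likelihood method of edgeR, p-values being adjusted by Benjamini-Hochberg over all genes (R 4.3.3, edgeR 4.0.16, limma 3.58.1, DESeq2 1.42.0, Python 3.11.15). The standard error was the log2 fold change over the root of its F statistic. Exon lengths came from GENCODE M21 and promoter windows from RefSeq. No protein sequences were used. The procedure was tested on simulated data. The members and the lists of pathway genes and markers were chosen with earlier results of these data known. The genes named are the 8 members, list genes called with all libraries or without 1 of them, the 3 genes most like Fas, Cflar and Casp8, and overlapping genes. Casp1, Casp12, Casp14, Mlkl, Bax, Tnfrsf1a, Tnfrsf22, Tnfrsf23, Tnfrsf25, Tradd, Faf1, Tnfrsf18, Cd3g, Gata3, Il1rl1, Il7r, Il5, Il13, Areg and Gm3841 were named after their values were seen. Isotype control and DTA-1 share replicate numbers, but same-numbered libraries did not deviate together. Some genes of the lists are counted but not reported by name here.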

Additional observations from a re-analysis of the deposited data

How the results depend on the processing

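The count of called members was 0 under each of the 15 alternatives: DESeq2's size factors, total counts, both other filters, DESeq2's Wald test, limma-trend, the replicate block, each library left out, no fold-change limit, and an unadjusted p with 1.5-fold. Of 91 fold changes of the 7 members under 13 of these, 88 kept their direction, and the 3 that turned were near 0: Fas without isotype replicate 3 (range with a library left out −0.009 to 0.120), Ripk1 with total counts (−0.0182), and Ripk1 without DTA-1 replicate 3 (range −0.0355 to 0.0611). Over all genes the count of 0 became 25 with DESeq2's Wald test, 2 without the filter, 1 with the replicate block and 337 at the unadjusted p, and ranged from 0 to 111 with a library left out. The 111 were without DTA-1 replicate 1. For the further pathway genes the count of 0 became 2 at the unadjusted p and ranged from 0 to 4 with a library left out. The 4 were again without DTA-1 replicate 1. The cause of these shifts was not tested. Same-numbered libraries did not deviate together (correlations of the deviations −0.0069, −0.0029 and 0.015), and the block changed no other call. These correlations cannot exclude a pairing, because DTA-1 replicate 1 stood apart from its group. Where an alternative leaves 2 libraries in a group, the spread is estimated from the 5 that remain. The 55.3-fold range of levels per length was 61.9-fold by the longest transcript. For Fasl the depth of any single library allows no statement below 0.0848 CPM.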
